A study of Mus musculus with 18 samples.

Results

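The genes described are 36 named members of the cell death machinery of the mouse: the BCL2 family, the caspases, the apoptosome and the proteins that mitochondria release, the inhibitor of apoptosis proteins (IAPs), and the death receptors with their adaptors and kinases. They were taken by name from a fixed list of symbols, and that list was chosen with earlier results of these data known. The array names 21307 genes, and all 36 have a probe on it. Of the 36, 35 were among the 15501 genes tested. Each of those 35 was well above background on all 18 arrays, so none entered the test through a single bright group. The exception was Hrk, a BH3-only gene, whose probe was well above background on 3 of 18 arrays and gave no level here.

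Apoptosis from within the cell is decided at the outer mitochondrial membrane. Guardians such as Bcl2, Bcl2l1 and Mcl1 hold the pore formers Bax and Bak1 in check, and BH3-only proteins such as Bcl2l11 (BIM), Pmaip1 (NOXA), Bbc3 (PUMA) and Bmf bind the guardians and free the pore formers. Cytochrome c then leaves the mitochondria, assembles with Apaf1 into the apoptosome and switches on caspase-9, while Diablo (SMAC) relieves the block that IAPs such as Xiap place on caspases. Death receptors such as Fas and Tnfrsf10b act from outside through Fadd and caspase-8, with Cflar as a brake, and through Ripk1 and Ripk3 can lead to necroptosis. Macrophages use this machinery to limit their own lifespan and, through caspase-1 and caspase-4, to drive inflammatory death.

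Bone marrow-derived macrophages in 6 groups of 3 samples each were measured by 1-colour Agilent arrays, which gave 18 arrays in all. The cells came from C57BL6/J mice aged 8 to 12 weeks, either Irf4-/-, which lack the transcription factor IRF4, or Irf4+/-, so the control genotype is heterozygous and no wild-type cells were included. Marrow of several animals was pooled for each culture, the cells were grown in CSF1, the growth factor of macrophages, and on day 7 each genotype was left as mock for 18 h or received 10 ng/ml IL-4, either for 4 h or for 18 h. IL-4 is the cytokine that turns macrophages towards their alternative state, and the design asks how they respond to it over time and whether IRF4 is needed for that. Mock cultures lasted 18 h, and both IL-4 times are compared with them. There was no 4 h mock. In each comparison that uses the 4 h cultures, IL-4 and incubation time therefore cannot be told apart. The letters A, B and C of the sample names mark 3 experiments, each with all 6 groups, and the samples paired by letter deviated together. Every level below is a log2 intensity relative to the array's 75th percentile, and every change is a difference of 2 such levels with the standard error of the fit over 3 arrays per group. The words rose and fell are kept for a limma adjusted p under 0.05 over all genes tested. Results of 2 fits are given, 1 without the letters and 1 with the letter as a block, which compares arrays within an experiment. Standard errors come from the first of these.

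All 10 macrophage marker genes were well above background on all 18 arrays. Their summed linear levels lay between 499 and 593 on the Irf4-/- arrays of experiment A and between 689 and 1120 on the other 15 arrays. The part of this in the results was not tested. Of the markers of other cells, 3 of 9 for T and NK cells, 4 of 8 for the B lineage and 3 of 7 for dendritic cells were also well above background on all 18, while Gzma, Ebf1 and Siglech, 1 of each list, were so on none. Summed linear levels of the T and NK list lay between 0.665 and 1.43 in mock, 0.735 and 1.63 at 4 h and 0.462 and 0.654 at 18 h. The B lineage list lay between 1.49 and 3.02, 1.93 and 3.93, and 1.24 and 2.06, and the dendritic list between 0.237 and 0.600 over all groups. Their part in the results was not tested. For 8 neutrophil markers the sums lay between 52.9 and 55.4 on the Irf4-/- arrays of experiment A and between 13.6 and 27.7 on the other 15 arrays; the part of this in the results below was not tested. Summed erythroid markers lay between 0.852 and 1.31 in mock and between 1.93 and 5.39 with IL-4, through the transferrin receptor gene Tfrc; the part of this in the results was not tested. Every sample is labelled as 2 males and 1 female, but the log2 level of Xist lay between -8.52 and -7.91 on the 6 arrays of experiment B and between 1.23 and 4.54 on the other 12. Among those 12 it was 4.11 to 4.54 on the Irf4+/- arrays of C and 1.23 to 2.90 on the rest. The members' IL-4 results are therefore given by experiment. The single Irf4 probe, whose place relative to the deletion no source used here gives, read 0.33 ± 0.39 higher in Irf4-/- than in Irf4+/- mock samples and does not check the genotype. The Irf4-/- arrays of A were scanned on a day of their own and B on another, and the genotypes of A and of B lay on separate slides. In C the Irf4+/- and Irf4-/- arrays of the same condition also lay on different slides. A slide effect and a genotype effect thus cannot be told apart within a condition of any experiment. The IL-4 arrays of C also lay on other slides than their mock, except at 4 h in Irf4+/- cells.

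The share of death genes called with IL-4 in limma lay near the share of all genes. Without the block, 2 of the 35 tested changed in Irf4+/- cells at 4 h, 5.71% against 4.27% of all genes. The same 2 genes, Casp6 upward and Pmaip1 downward, made up the calls in Irf4+/- cells at 18 h (4.12% of all genes) and in Irf4-/- cells at 4 h (3.91%). In Irf4-/- cells at 18 h only Casp6 was called, 2.86% against 3.54%. With the letter as a block the counts were 6 members against 18.2% of all genes at 4 h and 7 against 15.5% at 18 h in Irf4+/- cells. In Irf4-/- cells they were 5 against 18.2% at 4 h and 6 against 18.6% at 18 h. Those shares of the members, 17.1%, 20%, 14.3% and 17.1%, lay near the background. The median change of the 35 members was -0.04 at 4 h and -0.02 at 18 h in Irf4+/- cells, beside -0.02 and 0.02 over all genes, and 0.02 and 0.04 in Irf4-/- cells beside 0.08 and 0.12. The 3 IL-4 and 3 mock arrays did not overlap in 6 members (17.1%, against 16.3% of all genes) at 4 h and 4 (11.4%, against 14.1%) at 18 h in Irf4+/- cells, and in 8 (22.9%, against 21.9%) and 12 (34.3%, against 22%) in Irf4-/- cells. The median absolute change of the members was 0.32 at 4 h and 0.33 at 18 h in Irf4+/- cells, beside 0.24 and 0.21 over all genes. In Irf4-/- cells it was 0.25 and 0.20, beside 0.27 and 0.28. Members split about evenly, with 17 above 0 and 18 below in both Irf4+/- comparisons. The plot of changes by gene and experiment shows that most members lay near 0 and that Casp6 had the largest change in each comparison.

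**Figure D1:**
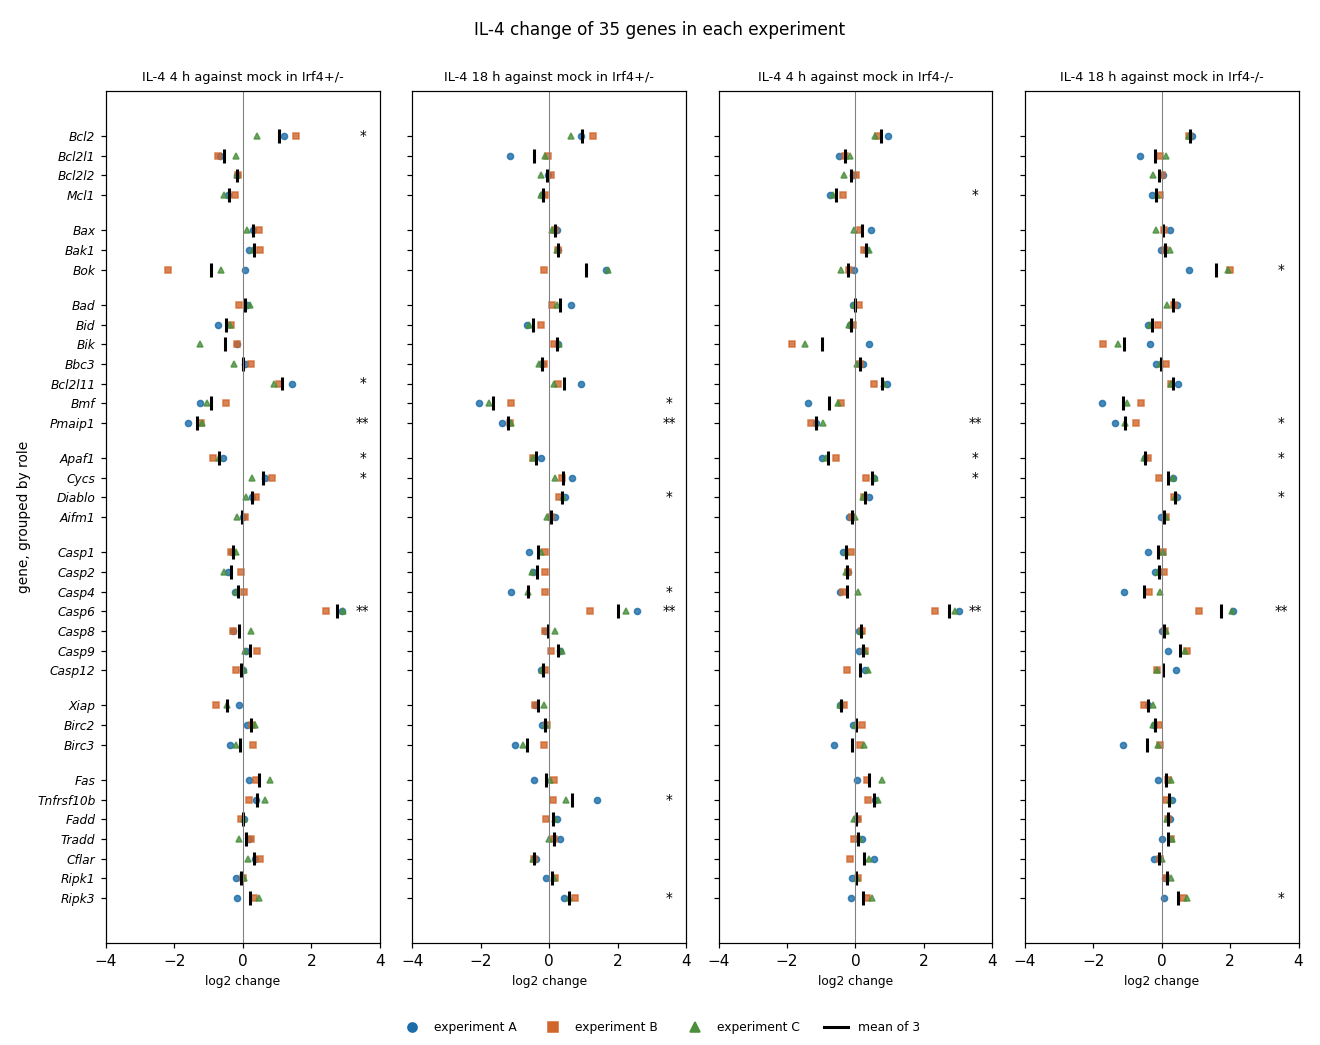
Log2 change of 35 death genes with IL-4 against mock (x axis) in 4 comparisons, with genes on the y axis grouped by role; symbols are the 3 experiments, black bars their mean, 2 asterisks mark a call without the block and 1 asterisk a call only with it. Casp6 lies at 1.74 to 2.75 and Pmaip1 at -1.34 to -1.07 in all 4 panels, while Bok and Bik spread widely between experiments.

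Casp6, an executioner caspase that cleaves lamins and other structural proteins, had the largest IL-4 response of the members in either genotype. In Irf4+/- cells its levels in experiments A, B and C were 3.27, 2.83 and 2.66 in mock, 6.17, 5.25 and 5.58 after 4 h of IL-4 and 5.85, 4.01 and 4.90 after 18 h. The same conditions gave 2.54, 2.40 and 2.64, 5.56, 4.71 and 5.55 and 4.62, 3.49 and 4.68 in Irf4-/- cells. No IL-4 array overlapped the mock arrays of its genotype, and experiment B had the smallest increase each time. The change was 2.75 ± 0.43 at 4 h in Irf4+/- cells, 6.73-fold, with an adjusted p of 0.00149 in limma. At 18 h it was 2.00 ± 0.43, 4-fold (limma adjusted p = 0.0137). The Irf4-/- cells gave 2.75 ± 0.43 at 4 h, 6.72-fold (limma adjusted p = 0.00162), and 1.74 ± 0.43 at 18 h, 3.33-fold (limma adjusted p = 0.0361). Casp6 thus rose at both times in both genotypes. At 18 h the Irf4+/- call was lost with normexp background (limma adjusted p = 0.0736) and with only the groups compared in the fit (0.158). The Irf4-/- call at 18 h was lost with median scaling (limma adjusted p = 0.0700), with no filter on dim probes (0.0603) and with only the groups compared (0.0777). Without experiment C none of the 4 calls held, with limma adjusted p of 0.158 and 0.424 in Irf4+/- and 0.184 and 0.616 in Irf4-/- cells, and without A both calls at 18 h were lost (0.0937 and 0.107). With the letter as a block each call held whichever experiment was left out, with limma adjusted p up to 0.00706 at 4 h and 0.0436 at 18 h.

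The Casp6 change against the 18 h mock was smaller at 18 h than at 4 h in all 3 experiments of both genotypes. The difference of 18 h from 4 h was -0.32, -1.25 and -0.68 in experiments A, B and C of Irf4+/- cells and -0.95, -1.22 and -0.87 in Irf4-/- cells. It passed the test in Irf4-/- cells with the block alone, where the limma adjusted p was 0.0391 with it and 0.521 without it. In Irf4+/- cells those values were 0.101 and 0.702. The Casp6 call between the times was singled out after its values were seen, and it was lost when experiment B or C was left out.

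The sequences before the starts of 3 members are shown: Casp6 for the caspases, Apaf1 for the apoptosome and Bok for the pore formers. Apaf1 and Bok were called with the block only, and Bok varied widely between experiments. Each is the 250 bases before the gene's start in RefSeq (GRCm38.p6), 5′ to 3′ on the gene's strand, with GGGCGG boxes on either strand in capitals. They lie at chr3:129901165-129901414 on the plus strand for Casp6, chr10:91082744-91082993 on the minus strand for Apaf1 and chr1:93685325-93685574 on the plus strand for Bok.
Casp6: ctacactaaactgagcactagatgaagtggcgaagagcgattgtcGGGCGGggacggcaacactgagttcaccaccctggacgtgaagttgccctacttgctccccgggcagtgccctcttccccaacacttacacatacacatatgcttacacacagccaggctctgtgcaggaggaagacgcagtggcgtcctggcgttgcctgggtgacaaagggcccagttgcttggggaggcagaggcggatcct
Apaf1: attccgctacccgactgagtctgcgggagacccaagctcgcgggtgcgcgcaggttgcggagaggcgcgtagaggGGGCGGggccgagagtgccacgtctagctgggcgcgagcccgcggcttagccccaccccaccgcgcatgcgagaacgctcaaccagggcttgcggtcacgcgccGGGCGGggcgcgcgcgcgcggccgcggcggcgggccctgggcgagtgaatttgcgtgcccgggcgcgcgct
Bok: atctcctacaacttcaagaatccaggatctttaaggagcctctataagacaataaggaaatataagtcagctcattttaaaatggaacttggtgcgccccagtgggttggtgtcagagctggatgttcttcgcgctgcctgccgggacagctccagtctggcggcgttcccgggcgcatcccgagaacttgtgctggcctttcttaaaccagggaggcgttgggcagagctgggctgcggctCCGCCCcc
The box, the core of sites bound by SP-family factors, stands 205 to 200 bases before the start of Casp6, at 2 places before Apaf1 and, read as CCGCCC, 8 to 3 bases before Bok. It occurs in 21 of the 32 members with a promoter in RefSeq and in 32.7% of all 32851 promoters of the same length. Members were counted by gene and the whole set by promoter, on the array or not. The shares are thus not like for like, and enrichment was not tested. The palindromes TTCNNNGAA and its form with 4 free bases in the middle, the letters that STAT factors such as the IL-4-activated STAT6 bind, were searched on both strands in the same window. They were in none of these 3 windows. The first was found in the promoters of Casp12, Fas and Ripk1 and in 7.02% of all promoters, and the second in those of Fadd and Ripk1 and in 5.85%. These are matches of letters in a window and say nothing of binding.

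**Figure D2:**
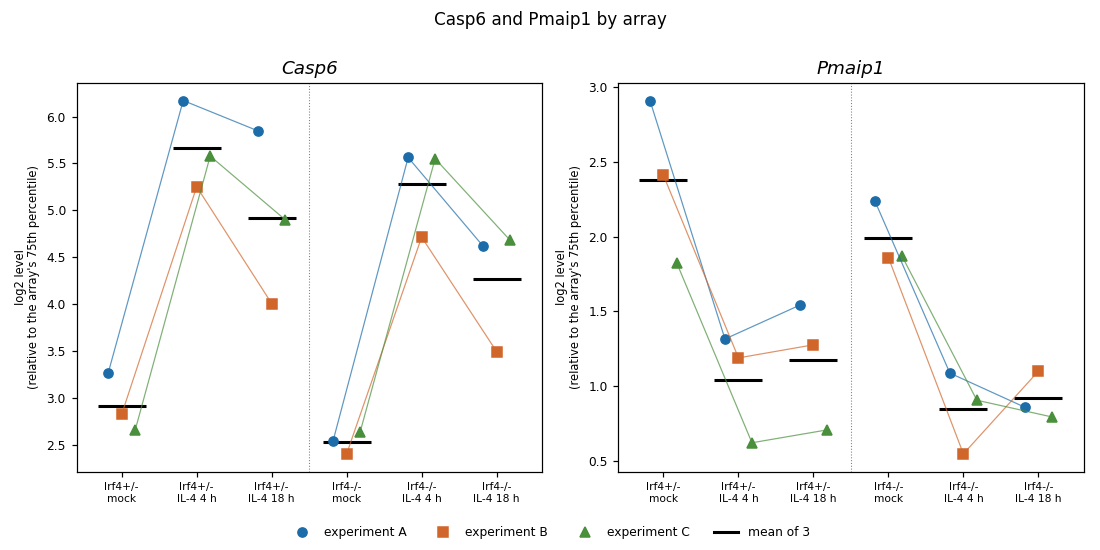
Log2 levels relative to the array's 75th percentile (y axis) of Casp6 and Pmaip1 in the 6 groups (x axis); symbols are single arrays by experiment, thin lines join arrays of 1 experiment and genotype, and black bars are means of 3. For Casp6 the 12 IL-4 arrays sit between 3.49 and 6.17 and the 6 mock arrays between 2.40 and 3.27, and for Pmaip1 the IL-4 arrays lie at 0.55 to 1.54 and the mock arrays at 1.82 to 2.91.

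Of the other caspases, none was called without the block. Casp4, the receptor of intracellular bacterial lipopolysaccharide, had levels of 3.83, 4.01 and 4.19 in mock Irf4+/- cells, 3.60, 4.05 and 3.98 at 4 h and 2.70, 3.88 and 3.57 at 18 h. Irf4-/- cells had 3.90, 4.11 and 3.82, 3.46, 3.73 and 3.89 and 2.80, 3.73 and 3.77. The low values at 18 h came mostly from experiment A. Its change at 18 h in Irf4+/- cells was -0.63 ± 0.30 and passed the limma test with the block (adjusted p = 0.0435) but not without it (0.417), and the call was lost when 1 experiment was left out, whichever it was. In Irf4-/- cells the change at 18 h was -0.51 ± 0.30, with an adjusted p of 0.0852 in the blocked limma fit. Casp1, which matures IL-1β and IL-18, differed by -0.29 and -0.31 in Irf4+/- and -0.26 and -0.10 in Irf4-/- cells. The initiators Casp2, Casp8 and Casp9 and the endoplasmic reticulum caspase Casp12 had changes between -0.37 (Casp2 at 18 h in Irf4+/- cells) and 0.53 (Casp9 at 18 h in Irf4-/- cells), and none was called in either fit.

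Pmaip1 (NOXA), the BH3-only protein that binds Mcl1 and marks it for degradation, fell with IL-4. Its levels in Irf4+/- cells were 2.91, 2.41 and 1.82 in mock, 1.32, 1.19 and 0.62 at 4 h and 1.54, 1.28 and 0.71 at 18 h. Levels in Irf4-/- cells were 2.24, 1.86 and 1.87, 1.09, 0.55 and 0.91 and 0.86, 1.10 and 0.80. Every IL-4 array was below every mock array. The change was -1.34 ± 0.29 at 4 h and -1.20 ± 0.29 at 18 h in Irf4+/- cells, 2.52-fold and 2.3-fold lower, with limma adjusted p of 0.0137 and 0.0263. It was -1.14 ± 0.29 at 4 h in Irf4-/- cells (limma adjusted p = 0.037) and -1.07 ± 0.29 at 18 h. That last change missed the threshold without the block (limma adjusted p = 0.0551) and passed with it (0.00276). Without the block, each of the 3 other calls was lost when any 1 experiment was left out, with limma adjusted p from 0.0692 to 0.414, while over the alternatives tried these 3 changes stayed between -1.45 and -0.996. With the block all 4 held whichever experiment was left out, at limma adjusted p up to 0.0493.

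Bcl2l11 (BIM), a BH3-only protein that binds all guardians and rises when growth factors are withdrawn, was higher at 4 h. In Irf4+/- cells its levels were 2.39, 3.30 and 2.27 in mock, 3.84, 4.36 and 3.19 at 4 h and 3.32, 3.56 and 2.40 at 18 h. The Irf4-/- levels were 2.21, 2.43 and 2.42, 3.14, 2.97 and 3.26 and 2.68, 2.69 and 2.69. Each experiment was higher at 4 h than in its mock and lower again at 18 h than at 4 h, though the difference between the times passed the test in neither fit. The 4 h change in Irf4+/- cells was 1.14 ± 0.33, 2.21-fold, and it passed the limma test with the block (adjusted p = 0.0113) but not without it (0.0767). The other probes of the gene gave 1.20 and 0.37. With the block and without experiment B, the Bcl2l11, Bcl2 and Apaf1 calls of this comparison did not all hold. The 4 h change in Irf4-/- cells was 0.77 ± 0.33 (limma adjusted p = 0.0712 with the block), and the mock and IL-4 arrays of that genotype did not overlap.

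Bmf, a BH3-only protein tied to the cytoskeleton, went the other way. Levels were 2.41, 2.31 and 0.84 in mock Irf4+/- cells, 1.15, 1.81 and -0.20 at 4 h and 0.36, 1.19 and -0.91 at 18 h. The same conditions gave 1.03, 0.94 and 0.99, -0.35, 0.51 and 0.49 and -0.71, 0.34 and -0.02 in Irf4-/- cells. Each experiment was lower at both times than in its own mock, but the Irf4+/- groups overlapped, since experiment C was lower throughout. The change at 18 h in Irf4+/- cells, -1.64 ± 0.58, passed the limma test with the block (adjusted p = 0.029) and not without it (0.17). The other probes of Bmf gave -0.40 and -0.96 there. With the block and without experiment A, the Bmf, Ripk3 and Tnfrsf10b calls of this comparison did not all hold. In Irf4-/- cells the probe tested gave -1.12 at 18 h and the others 0.54 and -1.03, so 1 of the 3 differed in direction. The other BH3-only genes had no call in either fit. Bbc3 (PUMA), a target of p53, stayed between -0.22 and 0.13, Bad between -0.01 and 0.32, and Bid, which links caspase-8 to mitochondria, between -0.48 and -0.14. Bik, with an SE of 0.46 the least precise of these, ranged from -1.11 to 0.23.

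Among the guardians, Bcl2 was higher with IL-4 in every experiment. Its levels were -0.23, -0.88 and 1.26 in mock Irf4+/- cells, 0.96, 0.66 and 1.67 at 4 h and 0.69, 0.41 and 1.90 at 18 h. Irf4-/- cells had 0.84, 1.19 and 1.43, 1.79, 1.87 and 2.00 and 1.74, 1.98 and 2.24. The Irf4+/- groups overlapped, since experiment C was high from the start, whereas the Irf4-/- mock and IL-4 arrays were apart. The 4 h change in Irf4+/- cells was 1.05 ± 0.47, 2.07-fold, and was called with the block (limma adjusted p = 0.0326) and not without it (0.329). The other probes gave 0.58 and 0.55. With the block and without experiment B, the Bcl2, Bcl2l11 and Apaf1 calls of this comparison did not all hold. The changes of 0.95 ± 0.47 at 18 h in Irf4+/- cells and of 0.73 ± 0.47 and 0.83 ± 0.47 in Irf4-/- cells did not pass, with limma adjusted p of 0.0558, 0.123 and 0.0798 in the blocked fit.

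Mcl1, the short-lived guardian on which myeloid cells depend and the partner of Pmaip1, was lower at 4 h. Levels were 5.89, 6.37 and 5.56 in mock Irf4+/- cells, 5.47, 6.14 and 5.02 at 4 h and 5.68, 6.26 and 5.32 at 18 h. Levels in Irf4-/- cells were 5.65, 6.06 and 5.81, 4.91, 5.70 and 5.16 and 5.38, 6.00 and 5.68. All 6 within-experiment differences at 4 h were below 0. The Irf4-/- change of -0.58 ± 0.32 passed the limma test with the block (adjusted p = 0.0298) and not without it (0.496). The Irf4+/- change of -0.40 ± 0.32 did not (0.13 in the blocked limma fit), and by 18 h the differences were -0.19 and -0.16. The Irf4-/- call at 4 h was lost when experiment C was left out. Bcl2l1 (BCL-XL) differed by -0.54, -0.44, -0.32 and -0.19 in the 4 comparisons and Bcl2l2 (BCL-w) by at most 0.16 in size, with no call.

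Of the pore formers, Bax and Bak1 had changes between 0.04 and 0.32 and no call in either fit. Bok, a relative of both, varied more between experiments than any other of the 35 members tested. Levels were -0.98, -2.22 and -2.51 in mock Irf4+/- cells, -0.92, -4.42 and -3.16 at 4 h and 0.68, -2.36 and -0.80 at 18 h. The Irf4-/- levels were -1.00, -3.78 and -2.98, -1.03, -3.98 and -3.40 and -0.20, -1.77 and -1.05. Experiment A was highest in every group, and all 6 pairs of arrays were higher at 18 h than at 4 h. The change at 18 h against mock in Irf4-/- cells was 1.57 ± 1.02, 2.98-fold, called with the block (limma adjusted p = 0.0114) and not without it (0.597). This call was lost when experiment B or C was left out. Against mock, Irf4+/- cells gave 1.66, -0.14 and 1.72 at 18 h in A, B and C, with experiment B not higher. The difference of 18 h from 4 h, chosen after its values were seen, was 2.01 ± 1.02 in Irf4+/- and 1.79 ± 1.02 in Irf4-/- cells, with limma adjusted p of 0.00442 and 0.0115 with the block and 0.602 and 0.801 without it. Neither call between the times held when experiment C was left out.

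**Figure D3:**
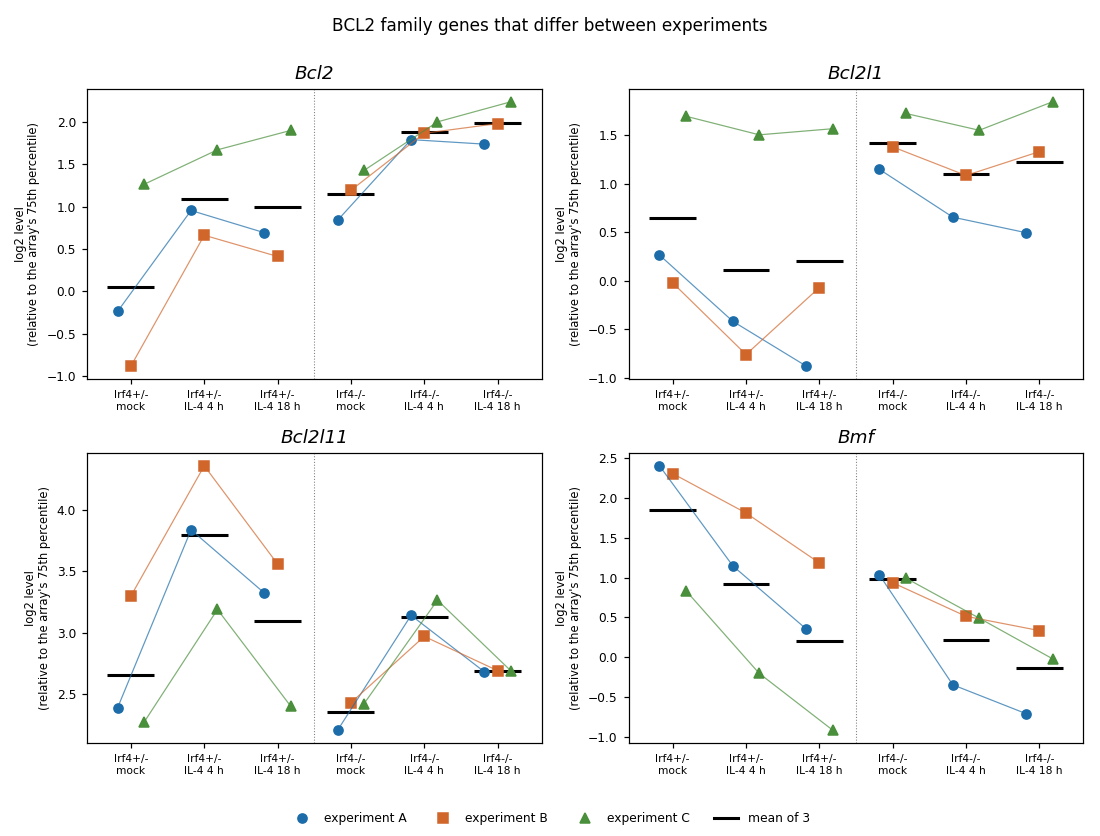
Log2 levels relative to the array's 75th percentile (y axis) of Bcl2, Bcl2l1, Bcl2l11 and Bmf in the 6 groups (x axis); symbols are single arrays by experiment, thin lines join arrays of 1 experiment and genotype, and black bars are means of 3. In Irf4+/- cells experiment C stands apart from A and B in Bcl2, Bcl2l1 and Bmf at all 3 conditions, and in Irf4-/- cells the 3 experiments lie closer together.

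Apaf1, the scaffold of the apoptosome, was lower with IL-4 in all 12 within-experiment comparisons. Its levels were 1.36, 2.12 and 1.45 in mock Irf4+/- cells, 0.79, 1.25 and 0.76 at 4 h and 1.12, 1.66 and 0.97 at 18 h. The same conditions gave 1.84, 1.81 and 1.49, 0.86, 1.25 and 0.63 and 1.34, 1.40 and 0.96 in Irf4-/- cells. The lowest levels were at 4 h, where no array overlapped mock in either genotype. With the block, Apaf1 fell at 4 h in Irf4+/- cells (-0.71 ± 0.25, limma adjusted p = 0.00253), at 4 h in Irf4-/- cells (-0.80 ± 0.25, 0.00127) and at 18 h in Irf4-/- cells (-0.48 ± 0.25, 0.0266). Without the block the limma adjusted p were 0.167, 0.116 and 0.465. Even with the block, both Irf4-/- calls were lost when experiment C was left out, and the one at 18 h also without B. The 2 other probes of the gene gave -0.58 and -0.49 at 4 h in Irf4+/- and -0.67 and -0.57 in Irf4-/- cells, so all 3 probes were lower.

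Cycs, somatic cytochrome c, carries electrons in respiration and triggers the apoptosome once released. Levels were 4.37, 3.32 and 4.30 in mock Irf4+/- cells, 5.01, 4.18 and 4.57 at 4 h and 5.05, 3.69 and 4.46 at 18 h. Irf4-/- cells had 4.69, 4.19 and 4.40, 5.22, 4.50 and 4.97 and 5.00, 4.11 and 4.73. Experiment B was lowest in every group, and all 6 arrays at 4 h were above their own mock. The 4 h changes, 0.59 ± 0.37 in Irf4+/- and 0.48 ± 0.37 in Irf4-/- cells, passed the limma test with the block (adjusted p = 0.0143 and 0.0418) and not without it (0.601 and 0.685), and neither call held when 1 experiment was left out, whichever it was. The other probes gave 0.51 and 0.54 and 0.31 and 0.34.

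Diablo, the mitochondrial protein that displaces caspases from IAPs, had small and even gains. Levels were 1.44, 0.69 and 0.91 in mock Irf4+/- cells, 1.71, 1.08 and 1.01 at 4 h and 1.90, 0.96 and 1.33 at 18 h. Levels in Irf4-/- cells were 1.23, 0.62 and 0.90, 1.62, 0.87 and 1.11 and 1.67, 0.96 and 1.29. The 18 h changes within experiments A, B and C were 0.46, 0.27 and 0.41 in Irf4+/- and 0.44, 0.34 and 0.39 in Irf4-/- cells, far closer to each other than the levels were. They passed the limma test with the block (adjusted p = 0.022 and 0.0187) and not without it (0.861 and 0.687), and neither held when 1 experiment was left out, whichever it was. A dimmer second probe of the gene gave 0.16 and -0.31, the latter in the opposite direction. Aifm1, a flavoprotein of the respiratory chain's assembly that can also enter the nucleus in death, had changes between -0.11 and 0.07 and no call.

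The IAPs had no call in either fit. Xiap, the direct caspase inhibitor, was lower by value in all 4 comparisons, by -0.45, -0.33, -0.42 and -0.40. Birc2 and Birc3, the ubiquitin ligases that steer TNF receptor signalling towards survival, had changes of -0.18 to 0.25 and -0.64 to -0.09. Xiap and Aifm1 lie on the X chromosome, and their levels on the experiment B arrays, where Xist was low, were -1.66 to -0.87 and 2.10 to 2.34. On the arrays of A and C they were -2.03 to -0.96 and 1.79 to 2.58, so B lay within the range of the others for Aifm1 and nearly so for Xiap.

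On the side of the receptors, Ripk3, the kinase that executes necroptosis, was higher at 18 h. Levels were 3.49, 2.81 and 3.14 in mock Irf4+/- cells, 3.33, 3.15 and 3.60 at 4 h and 3.93, 3.57 and 3.70 at 18 h. The Irf4-/- levels were 3.72, 3.14 and 3.06, 3.59, 3.47 and 3.55 and 3.79, 3.75 and 3.80. The 18 h arrays lay above the mock arrays in both genotypes, in Irf4-/- cells by a narrow margin in experiment A. The changes of 0.59 ± 0.21 and 0.47 ± 0.21 at 18 h had limma adjusted p of 0.0197 and 0.04999 with the block, the second at the edge of the threshold, and 0.172 and 0.331 without it. The Irf4-/- call was lost when experiment B or C was left out. With the block and without experiment A, the Ripk3, Bmf and Tnfrsf10b calls at 18 h in Irf4+/- cells did not all hold. Ripk1, the partner of Ripk3, moved by at most 0.16 in any IL-4 comparison.

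Tnfrsf10b, the mouse receptor for the death ligand TRAIL, was called once. Levels were -4.03, -3.91 and -3.40 in mock Irf4+/- cells, -3.63, -3.73 and -2.76 at 4 h and -2.63, -3.80 and -2.90 at 18 h. The same conditions gave -3.94, -4.01 and -3.53, -3.36, -3.65 and -2.87 and -3.64, -3.90 and -3.29 in Irf4-/- cells. The change of 0.67 ± 0.33 at 18 h in Irf4+/- cells passed the limma test with the block (adjusted p = 0.0383) and not without it (0.473). It rested mainly on experiment A, with 1.40, 0.10 and 0.50 in A, B and C, and the other probes gave 0.24 and 0.01. Fas differed by 0.46 at 4 h and -0.10 at 18 h in Irf4+/- cells and by 0.39 and 0.11 in Irf4-/- cells. The adaptors Fadd and Tradd had changes from 0.00 to 0.20, and none of these 3 genes was called.

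Cflar (c-FLIP), which blocks caspase-8 at the receptor, was not called against mock in either fit. Between the times, a comparison chosen after its values were seen, it was lower at 18 h than at 4 h in Irf4+/- cells, by -0.73, -0.93 and -0.63 in A, B and C. That difference of -0.77 ± 0.21 had a limma adjusted p of 0.0108 with the block and 0.108 without it, and the 5 probes of Cflar gave values from -0.77 to -0.40. The call was lost when experiment C was left out. In Irf4-/- cells the difference was -0.35 ± 0.21 (limma adjusted p = 0.23 with the block). Over all members, 18 h against 4 h gave no call in limma without the block in either genotype, beside 1.15% of all genes in Irf4+/- and 0.568% in Irf4-/- cells. At an unadjusted p under 0.05 there were 2 members (9.52% of all genes) in Irf4+/- and 1 (8.02%) in Irf4-/- cells. With the block there were 2 in each genotype, against 11.5% and 8.48%.

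**Figure D4:**
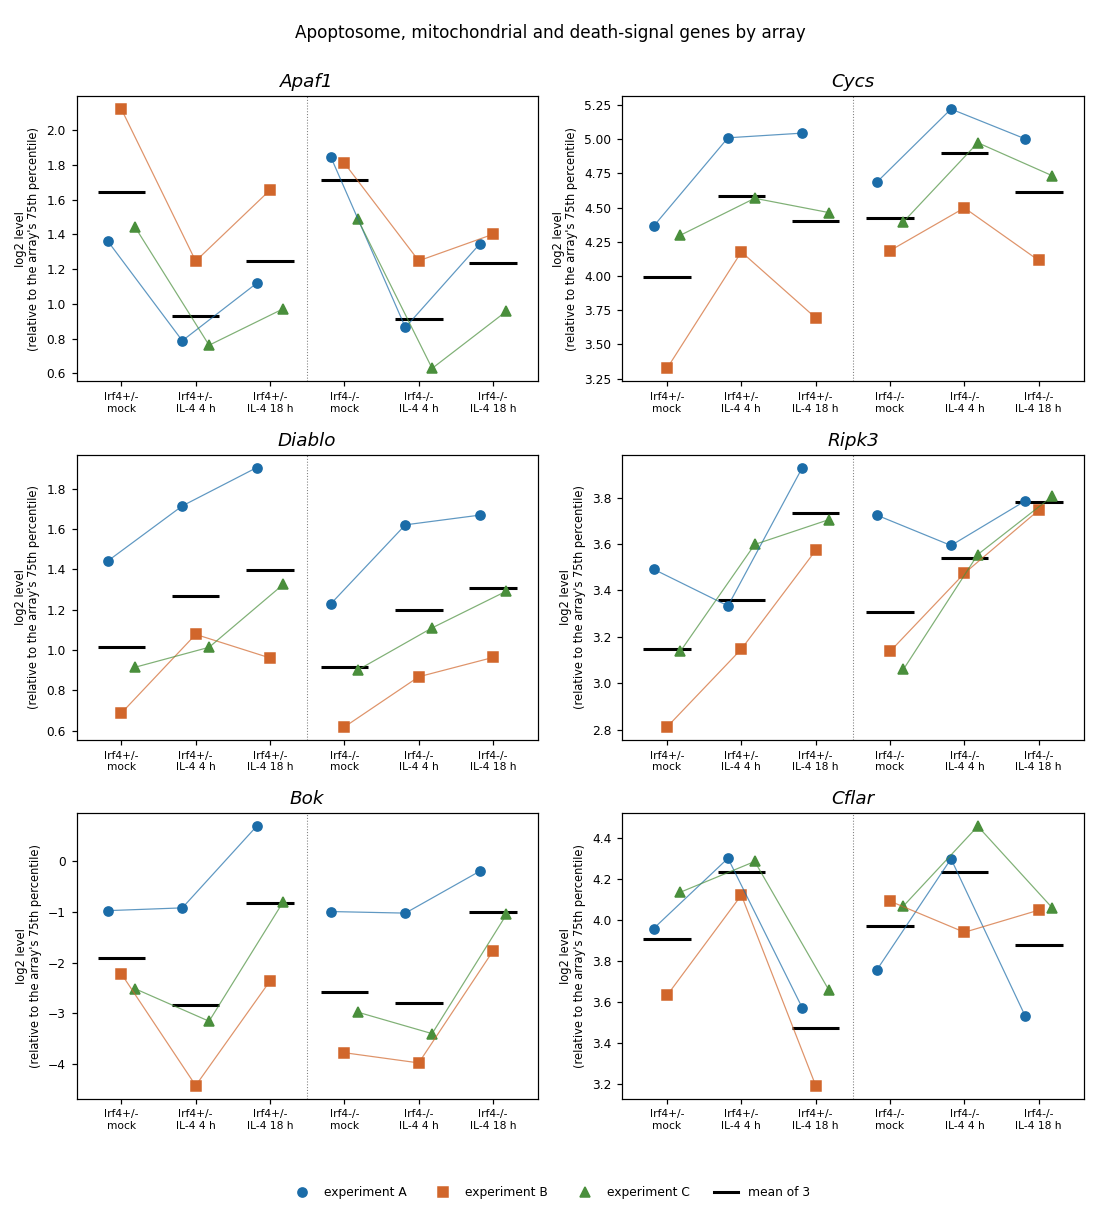
Log2 levels relative to the array's 75th percentile (y axis) of Apaf1, Cycs, Diablo, Ripk3, Bok and Cflar in the 6 groups (x axis); symbols are single arrays by experiment, thin lines join arrays of 1 experiment and genotype, and black bars are means of 3. The lines run nearly parallel for Apaf1 and less so for Cycs and Diablo, while the experiments sit at different heights. In Irf4-/- cells the Cycs line of experiment B ends below its mock level. For Bok experiment A is highest in every group.

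No member passed the test between genotypes. In limma without the block, 0 of 35 members differed between Irf4-/- and Irf4+/- cells in mock, at 4 h or at 18 h, where 0%, 0% and 0.0258% of all genes did. At an unadjusted p under 0.05 there was 1 member in mock (2.41% of all genes), 0 at 4 h (0.768%) and 0 at 18 h (3.02%). With the block the count of members was again 0 at each condition, against 0.0323%, 0.0258% and 0.413% of all genes. The lowest adjusted p of a member in the blocked limma fit was 0.182, for Bcl2 at 18 h.

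The member at the unadjusted threshold was Bcl2, higher in samples labelled Irf4-/- by 1.10 ± 0.47 in mock (limma adjusted p = 0.28 with the block). Within A, B and C the difference was 1.08, 2.07 and 0.16 in mock, 0.84, 1.20 and 0.33 at 4 h and 1.05, 1.57 and 0.34 at 18 h. It was above 0 in all 9 pairs and small in experiment C. Bcl2l1 had the same form, with 0.88, 1.40 and 0.03 in mock, 1.07, 1.84 and 0.05 at 4 h and 1.37, 1.40 and 0.28 at 18 h. Bmf had differences of -1.37, -1.37 and 0.16, -1.50, -1.30 and 0.69 and -1.07, -0.85 and 0.90, and Bcl2l11 of -0.18, -0.87 and 0.15, -0.70, -1.39 and 0.08 and -0.64, -0.87 and 0.29, so the sign in C was opposite to that in A and B.

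In these 4 genes, picked out after their values were seen, the Irf4+/- cultures differed more between experiments than the Irf4-/- cultures. The same order held in 28 of the 35 members (80%) and in 64% of the 15442 genes with a value on every array, so it is not particular to these genes. The mean over the 3 conditions of Bcl2 was 0.47, 0.07 and 1.61 in A, B and C of Irf4+/- cells and 1.46, 1.68 and 1.89 in Irf4-/- cells. For Bcl2l1 the means were -0.34, -0.28 and 1.59 against 0.76, 1.26 and 1.70. Bmf gave 1.30, 1.77 and -0.09 against -0.01, 0.60 and 0.49, and Bcl2l11 gave 3.18, 3.74 and 2.62 against 2.68, 2.70 and 2.79. The Irf4+/- level of experiment C thus lay near the Irf4-/- levels and away from A and B. The Irf4+/- arrays of C also had the highest Xist levels, 4.11 to 4.54. They had the lowest levels of the Y-linked Eif2s3y, 0.28 to 0.46 against 1.22 to 2.44 on all other arrays. The part of this in the differences was not tested. In bulk RNA, fewer cells of a kind and less RNA per cell cannot be told apart. In every experiment the genotypes of a condition were on separate slides. Bok showed another form, with experiment means of -0.41, -3.00 and -2.16 in Irf4+/- and -0.74, -3.17 and -2.48 in Irf4-/- cells, alike in both genotypes.

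The IL-4 response itself was also compared between genotypes. For the 35 members the difference of the responses at 4 h ran from -0.45 for Bik to 0.71 for Bok, and that at 18 h from -1.34 for Bik to 0.52 for Bmf. In limma 0 members were called in either comparison with or without the block, as were 0% of all genes. At an unadjusted p under 0.05 there were 0 members without the block at both times (0.387% and 0.555% of all genes) and, with it, 0 at 4 h and 1, Bik, at 18 h (2.83% and 4.34% of all genes). For Casp6 the difference of the responses was -0.00 ± 0.61 at 4 h and -0.27 ± 0.61 at 18 h, and for Pmaip1 0.20 ± 0.41 and 0.13 ± 0.41. An SE of 0.61 leaves room for a sizeable difference in Casp6 that 3 arrays per group would not show.

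A further 5 lists of death genes were counted in the same fits without the block. They were chosen for their place in the pathway, with earlier results of these data known. Of 32 other death receptors, ligands and adaptors tested, 1 rose and 3 fell at 4 h in Irf4+/- cells, 1 rose and 5 fell at 18 h, and in Irf4-/- cells the counts were 1 and 3 at 4 h and 3 and 4 at 18 h. The share of all genes that rose was 2.32%, 2.1%, 2.24% and 2.14%, and the share that fell 1.95%, 2.02%, 1.67% and 1.41%. The median change of that list was -0.06, -0.07, 0.05 and -0.07. The inflammatory ligand Tnf fell in Irf4+/- cells, with changes of -2.67 ± 0.59 at 4 h and -2.35 ± 0.59 at 18 h (limma adjusted p = 0.0153 and 0.0341), and at 4 h in Irf4-/- cells (-2.60 ± 0.59, 0.019); at 18 h there it had -2.21 ± 0.59 (0.0529, or 0.00557 with the block). The TRAIL gene Tnfsf10, whose receptor is the member Tnfrsf10b, fell at 18 h in both genotypes, with changes of -1.95 ± 0.31 and -2.04 ± 0.31 (limma adjusted p = 0.00163 and 0.00132). Map3k5 (ASK1), a stress kinase downstream of TNF receptors, fell in all 4 comparisons, with changes of -1.65 ± 0.18 at 4 h and -1.29 ± 0.18 at 18 h in Irf4+/- and -1.38 ± 0.18 and -0.80 ± 0.18 in Irf4-/- cells (limma adjusted p = 0.000113, 0.000666, 0.000498 and 0.0239). The receptor adaptor Traf1 fell in all 4 comparisons, with changes of -1.27 ± 0.34 and -1.30 ± 0.34 in Irf4+/- and -1.53 ± 0.34 and -1.58 ± 0.34 in Irf4-/- cells (limma adjusted p = 0.0465, 0.0414, 0.0168 and 0.0148). Its relative Traf5 rose in all 4, with 1.38 ± 0.22, 1.60 ± 0.22, 1.03 ± 0.22 and 1.19 ± 0.22 (limma adjusted p = 0.00171, 0.000487, 0.0137 and 0.00598).

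The necroptosis and inflammasome list had medians of -0.17 at 4 h and -0.85 at 18 h in Irf4+/- and -0.12 and -0.63 in Irf4-/- cells. These were the lowest of the lists except at 4 h in Irf4+/- cells, where other caspases, their substrates and IAPs had -0.18. Of the 21 necroptosis and inflammasome genes tested, 0 rose and 2 fell at 4 h and 0 rose and 3 fell at 18 h in Irf4+/- cells. In Irf4-/- cells 1 rose and 3 fell at 4 h and 0 rose and 2 fell at 18 h. With the block 10 fell at 18 h in Irf4+/- and 8 in Irf4-/- cells, against 7.79% and 6.65% of all genes. Ninj1, whose product ruptures the plasma membrane late in lytic death, fell in all 4 comparisons, with changes of -1.25 ± 0.17 and -1.15 ± 0.17 in Irf4+/- and -1.09 ± 0.17 and -0.84 ± 0.17 in Irf4-/- cells (limma adjusted p = 0.000492, 0.000816, 0.00148 and 0.00959). Gsdme, a pore-forming gasdermin that caspase-3 cleaves, fell at 4 h, with changes of -1.70 ± 0.36 and -1.54 ± 0.36 (limma adjusted p = 0.0129 and 0.0244). Il18, a cytokine released through caspase-1, fell at 18 h in both genotypes, with changes of -0.93 ± 0.20 and -1.00 ± 0.20 (limma adjusted p = 0.0137 and 0.00893), and at 4 h in Irf4-/- cells (-0.81 ± 0.20, 0.0315); at 4 h in Irf4+/- cells it had -0.62 ± 0.20 (0.106, or 0.0247 with the block). The interferon-induced GTPase gene Gbp5 fell at 18 h in Irf4+/- cells (-1.78 ± 0.45, limma adjusted p = 0.0385), and Ripk2, the kinase of the NOD receptors, rose at 4 h in Irf4-/- cells (1.55 ± 0.40, limma adjusted p = 0.0406). With the block Gbp5 also passed at 18 h in Irf4-/- cells (limma adjusted p = 0.0109), Ripk2 at 4 h in Irf4+/- cells (0.000525) and at 18 h in both genotypes (0.00381 and 0.00295), and Gsdme at 18 h in Irf4+/- cells (0.0156).

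The remaining lists had few calls. Of 21 other BCL2 family genes and mitochondrial partners, 1 rose at 4 h and 2 at 18 h in Irf4+/- cells, none fell, and none was called in Irf4-/- cells in limma without the block. With it, Irf4-/- cells had 5 that rose and 1 that fell at 4 h, where 10.2% of all genes rose and 8.03% fell, and 5 and 0 at 18 h, where 12% rose and 6.65% fell. The ferroptosis suppressor gene Aifm2 rose by 0.72 ± 0.16 at 4 h and 0.64 ± 0.16 at 18 h in Irf4+/- cells (limma adjusted p = 0.0151 and 0.0323), and the co-chaperone Bag3 by 0.97 ± 0.18 at 18 h (0.00459). With the block they also passed in Irf4-/- cells, Aifm2 at both times (limma adjusted p = 0.00702 and 0.00652) and Bag3 at 18 h (0.00461). Summed levels of the 5 stress and early response markers on the array were also higher at 18 h, 52.0 to 85.9 against 31.8 to 41.9 in mock, and their part in this was not tested. Of 19 genes of the p53 axis, Aen, an exonuclease induced by p53, rose at 4 h in Irf4+/- cells (1.23 ± 0.31, limma adjusted p = 0.0352) and was the 1 call without the block. The 18 other caspases, caspase substrates and IAPs had 0 calls against mock in limma without the block, and with it at most 1 that rose and 2 that fell, at 18 h in Irf4-/- cells.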

How the data were processed

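RNA of 18 macrophage samples was labelled with Cy3 and hybridised to 1 array each. Per the submitters' processing notes, scans were read with Agilent Feature Extraction 9.5.1. Per the file headers, its processed intensity is background-subtracted and detrended, with a surrogate value where the signal is very small, and arrays are not scaled to each other. A log2 table deposited by the authors matched log2 of that intensity, scaled to the array's 75th percentile, minus the Irf4+/- mock array of the same letter (correlation at least 0.99995 over 23690 probes); it has no spread in that group and served as an alternative only.

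Here log2 of the intensity minus the array's 75th percentile was used, without control spots and outliers. Of 43379 spots per array, 63.4% to 74.4% were well above background, and the number of arrays limits the precision. Probes entered if some group had them well above background on its 3 arrays (27514 of 41174), and the brightest of a gene's entered probes stood for the gene. Tests were limma 3.58.1 in R 4.3.3 (statmod 1.5.0), lmFit and eBayes, 1 mean per group over 18 arrays, two-sided, with Benjamini-Hochberg adjustment over all genes tested; the code was tested on simulated data. Pooled marrow makes the samples cultures, not animals. Groups and letters came from the sample titles. Each letter is 1 independent experiment on littermates, per the series' design text, and all 45 pairs of arrays with the same letter had deviations from their group means that correlated by over 0.1 (0.43 to 0.88), so the letter was also fitted as a block. Promoters came from RefSeq (32 of 36 members). Files were read in Python 3.11.15 (numpy 2.4.6, pandas 2.3.3), and plots drawn with matplotlib 3.10.9.

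The members and the gene lists were chosen with earlier results of these data known. Members called in either fit against mock or between genotypes were described in full, the others by range, and up to 3 called genes per further list and comparison were named. Alternatives covered background correction, scaling, the filter, the choice of probe, blocks and leaving out each experiment.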

Additional observations from a re-analysis of the deposited data

How the results depend on the processing

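Without the block the counts of members called against mock were 2, 2 and 2, and 1 (Irf4+/- at 4 h and 18 h, then Irf4-/- at 4 h and 18 h), and 0 and 0 for 18 h against 4 h. With the letter as a replicate block they were 6, 7, 5 and 6, and 2 and 2. The block with median scaling gave 6, 4, 3 and 4, and 3 and 1, and with normexp background (spots far dimmer than their background left out) 6, 8, 5 and 4, and 2 and 2. With the block and without experiment A the counts were 4, 3, 4 and 6, and 2 and 1; without B 3, 4, 3 and 2, and 1 and 0; without C 4, 4, 2 and 2, and 0 and 0. In these blocked fits the Casp6 and Pmaip1 calls against mock held each time. Without B, at most 1 of the Bcl2, Bcl2l11 and Apaf1 calls at 4 h in Irf4+/- cells thus held. Without A, at most 1 of the Bmf, Ripk3 and Tnfrsf10b calls at 18 h in Irf4+/- cells held. Without the block, leaving out 1 experiment gave 0 to 1 in each comparison against mock, and 0 for 18 h against 4 h. The slide as a random block gave 16, 11, 9 and 12, and 8 and 5; the cell pool as a random block 16, 17, 13 and 14, and 8 and 6; the slide as a fixed block 14, 6, 6 and 6, and 3 and 3. Fitting only the groups compared gave 1, 0, 1 and 0. The authors' deposited log2 table gave 5 and 7 in Irf4+/- cells. No filter on dim probes gave 1 at 4 h and 0 at 18 h in Irf4-/- cells, normexp gave 1 at 18 h in Irf4+/- and 1 at 4 h in Irf4-/- cells, and quantile scaling gave 2 at 18 h in Irf4-/- cells. Median scaling without the block kept that last count at 1, but the member was Pmaip1 (adjusted p = 0.0349) in place of Casp6 (0.0700). The cause of these moves was not tested, apart from the fewer arrays of a fit that leaves some out. All comparisons of genotype and of the response between genotypes stayed at 0 members under every alternative run. In comparisons where a member was called in either fit, its change reversed in none of the 14 alternatives checked for direction. Median scaling moved the median of all genes by 0.12 for genotype in mock, and normexp by -0.22 to 0.20 against mock. Settings added after seeing the data were the fixed slide block, normexp without far dimmer spots, and the block combined with another setting. With 3 arrays in a group, the precision of every change is limited.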
